A study of Homo sapiens with 6 samples.

Results

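The genes of respiratory complexes II to V were examined in PC-3 cells, an established human prostate cancer cell line, with and without a doxycycline (Dox)-driven tristetraprolin (TTP) transgene. Members were picked by a rule on gene symbols, which uses no measured value but was written with earlier results of these data known: symbols of the deposited gene-level table that begin with SDHA to SDHD, UQC, COX and a digit, or ATP5, together with CYC1, SCO1, SCO2 and SURF1, each with a protein-coding RefSeq name. COX4NB and ATP5SL begin with the same letters and were left out. This gave 64 members of 18973 protein-coding symbols. The readthrough symbol ATP5J2-PTCD1 stands at the same assembled locus as ATP5J2, so the members make up 63 loci, of which 6 belong to complex II, 11 to complex III, 29 to complex IV and 17 to complex V.

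RNA-Seq was performed on 6 samples. All 6 carried the Tet-On transactivator from a first retrovirus and received 300 ng/ml Dox for 4 hours. The 3 control samples (tdTom) carried a second retrovirus with the tdTomato marker only, and the other 3 (labelled TTP-tdTom) one with TTP and the marker. The cells were infected populations selected by drug resistance and by tdTomato, in 1 cell line. The comparison addresses how the RNA level of each gene differed between these separately infected populations under Dox. No sample without Dox was part of it, so other differences between the populations cannot be told apart from TTP.

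The deposited table gives FPKM, the number of fragments scaled by transcript length and library size, as 1 value for each group, so no value of a single sample was used, no spread between replicates can be given and no test was run. Every difference below is a difference between 2 group values, and a difference of at least 1.5-fold is named as a size, not as a significant change. ZFP36, the gene for TTP, stood at 5.56 FPKM in the tdTom group and at 5.54 FPKM in the group labelled TTP-tdTom, so the locus does not show the transgene. Whether fragments of the transgene were counted there was not tested. All directions below therefore rest on the group labels. In these bulk samples a change in cell composition and a change in RNA per cell cannot be told apart. Of the epithelial markers, KRT8, KRT18, KRT19 and EPCAM lay between 15.1 and 98.2 FPKM in the tdTom group, and CDH1 was at 0.119 FPKM. The prostate markers KLK3, KLK2, TMPRSS2 and FOLH1 were at or under 1.78 FPKM there. Leukocyte and endothelial markers were under 1 FPKM in both groups. Of the fibroblast markers, COL1A1 was at 4.34 and 4.56 FPKM, while COL1A2 was at 1.38 FPKM in the group labelled TTP-tdTom and listed at 0 in the control.

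Complexes II to V sit in the inner mitochondrial membrane. Succinate dehydrogenase (complex II) feeds electrons from the citric acid cycle to ubiquinone, the cytochrome bc1 complex (complex III) passes them to cytochrome c, and cytochrome c oxidase (complex IV) passes them to oxygen, while ATP synthase (complex V) uses the proton gradient to make ATP. The members are nuclear genes, for subunits or for assembly factors that insert heme, copper or other parts. The mitochondrial genome encodes further subunits, but the deposited values include no locus on it. TTP is an RNA-binding protein that binds AU-rich elements in 3′UTRs and brings mRNAs to the decay machinery. The heptamer UAUUUAU is the core of its binding site.

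Among the members, 10 had the heptamer in the longest 3′UTR of their RefSeq-matched GENCODE transcripts. The sites below come from the 3 such members with the lowest ratio between the groups and from 3 with ratios nearer to 0, and are shown because the same 7 bases stood beside quite different ratios. Capitals mark the heptamer, in DNA letters and 5′ to 3′ along the mRNA, with 10 bases on each side. Positions are those of GENCODE release 29 on GRCh38.
COX17 (chr3:119669561-119669587, minus strand): gtggaaaaagTATTTATaatttattgt
UQCRC2 (chr16:21983378-21983404, plus strand): aatcaacaagTATTTATtatgtgctga
COX16 (chr14:70325736-70325762, minus strand): gaaattatatTATTTATggttgtcaaa
ATP5F1 (chr1:111462578-111462604, plus strand): tatttgaaaaTATTTATcatgggtaat
COX7A2 (chr6:75237819-75237845, minus strand): tggggatcaaTATTTATtgacttgtag
COX19 (chr7:968772-968798, minus strand): tatcagaccgTATTTATaaagttgggt

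As a group, the genes of complexes II to V differed little between the samples. A mean of at least 1 FPKM over both groups, with a value above 0 in each, was reached by 56 of the 63 loci, and their median log2 ratio of the group labelled TTP-tdTom over tdTom was -0.15. In the same comparison the median over 11122 protein-coding symbols that passed the filter was -0.24. Of the 56 members, 52 had a ratio below 0 on the log2 scale and 4 above. Among all 11122 symbols, 80.9% were below 0 and 19.1% above. The 4 members above 0 were COX10, COX6C, COX20 and COX14. Relative to the median of all symbols the split turned around, with 40 members above it and 16 below. At a minimum of 10 FPKM 34 of 47 members lay above the median of all symbols, -0.27. Without a filter the split was even: over all loci above 0 in both groups, the median was -0.15 for 62 members and -0.16 for 17754 symbols, and 31 of the 62 lay above the latter. The median over 2221 other symbols past the filter with a 3′UTR no longer than the members' median of 407 bases was -0.16. The 28 members with such a 3′UTR had a median of -0.14. The part of 3′UTR length in these medians was not tested. Only COX17, SDHD and COX11 were at least 1.5-fold lower in the group labelled TTP-tdTom, which is 3 of 56 members, or 5.36%, where 23.3% of all symbols were that much lower. None of the 56 was at least 1.5-fold higher, against 1.79% of all symbols. At or under 80% of the control level were 12 members, where 41.2% of all symbols were, and none was higher by the same fold, where 4.41% were. The FPKM values of the 56 members added up to 7963 (tdTom) and 7101 (labelled TTP-tdTom), or 2.03% and 2.12% of the summed FPKM of all protein-coding symbols.

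**Figure D1:**
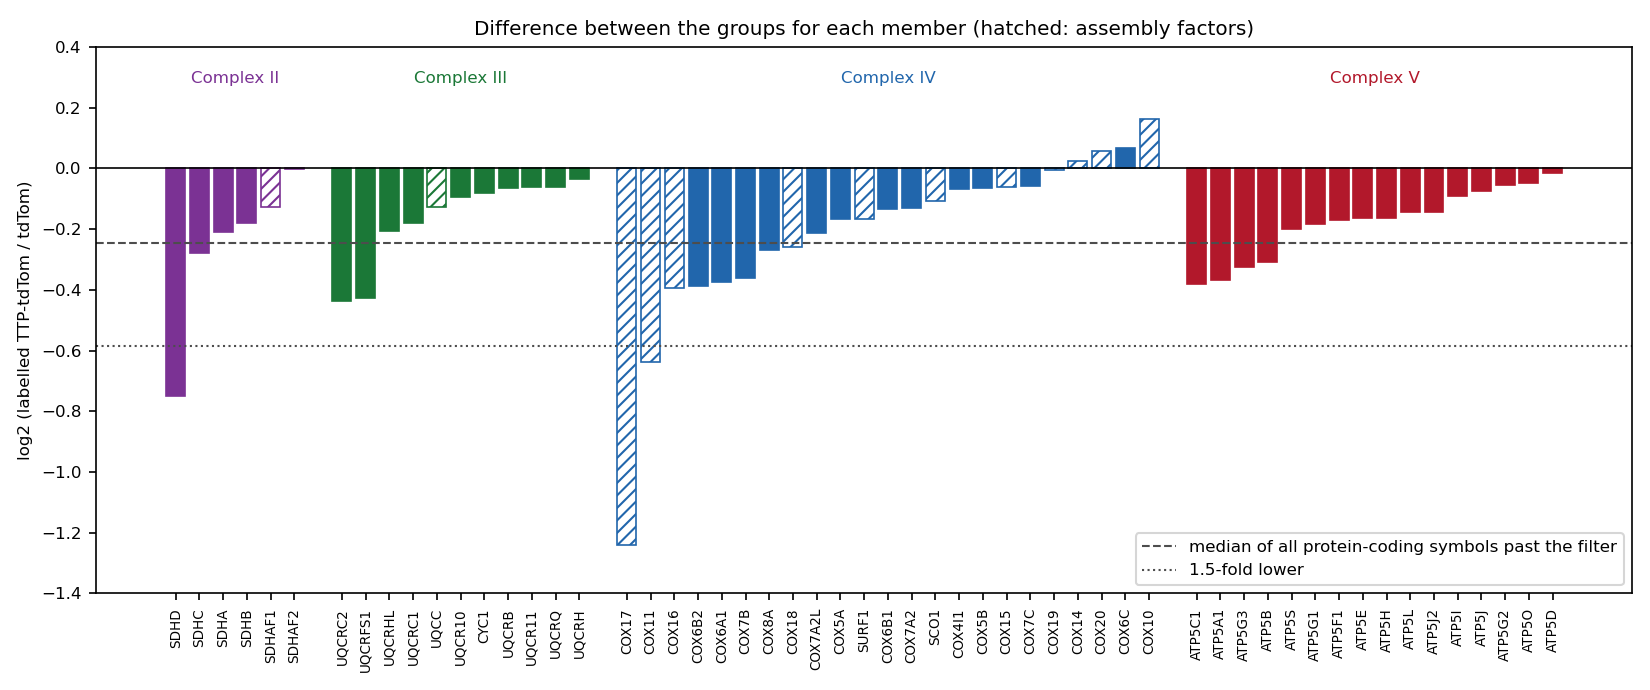
Log2 ratio of the group labelled TTP-tdTom over tdTom for each of the 56 members past the filter, ordered within each complex; hatched bars are assembly factors, the dashed line is the median of all protein-coding symbols (-0.24) and the dotted line marks 1.5-fold lower. COX17, SDHD and COX11 reach past the dotted line, and 40 bars end above the dashed line.

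By complex, the medians on the log2 scale lay close together. Complex III had the median nearest to 0, -0.095 over 11 members, followed by complex IV with -0.13 over 23, complex V with -0.16 over 16 and complex II with -0.19 over 6. With log2 ratios centred on the median of all symbols these medians became 0.15, 0.11, 0.080 and 0.050. The quartiles of all 56 members were -0.27 and -0.063, whereas those of all 11122 symbols were -0.55 and -0.055. The 38 structural subunits had a median of -0.15 and the 14 assembly factors past the filter one of -0.12. The assembly factors ranged from -1.24 to 0.16, or from -0.64 without COX17, and the subunits from -0.75 to 0.068.

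Complex II holds the most uneven set of subunits. SDHD, which anchors the enzyme in the membrane and is a known paraganglioma gene, was at 42.8 FPKM in the tdTom group and at 25.5 FPKM in the group labelled TTP-tdTom. That left 59.5% of the control level, a log2 ratio of -0.75, or -0.51 relative to the median of all symbols. Of all symbols, 16.3% had a lower ratio. Its assembled locus lies on chromosome 11 of GRCh37 from 111957571 to 111966518. The other anchor subunit, SDHC, was at 12.9 and 10.7 FPKM (log2 ratio -0.28). The flavoprotein SDHA, which oxidizes succinate, had the highest level of the complex, with 71.5 and 61.9 FPKM (-0.21). The iron-sulfur subunit SDHB stood at 48.5 and 42.8 FPKM (-0.18). Thus SDHD was the only subunit of the complex clearly below the median of all symbols, while SDHC was at -0.034 relative to it. The assembly factors SDHAF1 and SDHAF2 were at 3.92 and 3.59 FPKM and at 25.4 and 25.4 FPKM, and SDHAF2, which inserts the flavin into SDHA, was the member of the complex nearest to a log2 ratio of 0 (-0.0026).

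In complex III no member was 1.5-fold lower, where 23.3% of all symbols were. The lowest ratios were those of the core protein UQCRC2, with 37.2 FPKM in the tdTom group and 27.5 FPKM in the group labelled TTP-tdTom (log2 ratio -0.44), and of the Rieske iron-sulfur protein UQCRFS1, with 41.0 and 30.5 FPKM (-0.43). Relative to the median of all symbols they were at -0.19 and -0.18. The second core protein, UQCRC1, was at 59.8 and 52.7 FPKM (-0.18). CYC1, the heme protein that hands electrons to cytochrome c, was at 119.7 and 113.2 FPKM (-0.081). The 5 small subunits (UQCRB, UQCRH, UQCRQ, UQCR10 and UQCR11) had log2 ratios between -0.095 and -0.036. Among them the hinge protein UQCRH was the most abundant member of the complex, at 320.6 and 312.7 FPKM, and also the one nearest to 0. Its intronless copy UQCRHL was listed at 43.7 and 37.9 FPKM (-0.21). Reads can be shared between these near-identical genes, so the split between them is uncertain; added together they were at 364.3 and 350.6 FPKM (-0.056). The assembly factor UQCC had the lowest level, 12.6 and 11.5 FPKM (-0.13). The locus of UQCRB also names MTERFD1, so its value cannot be assigned to 1 gene alone.

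**Figure D2:**
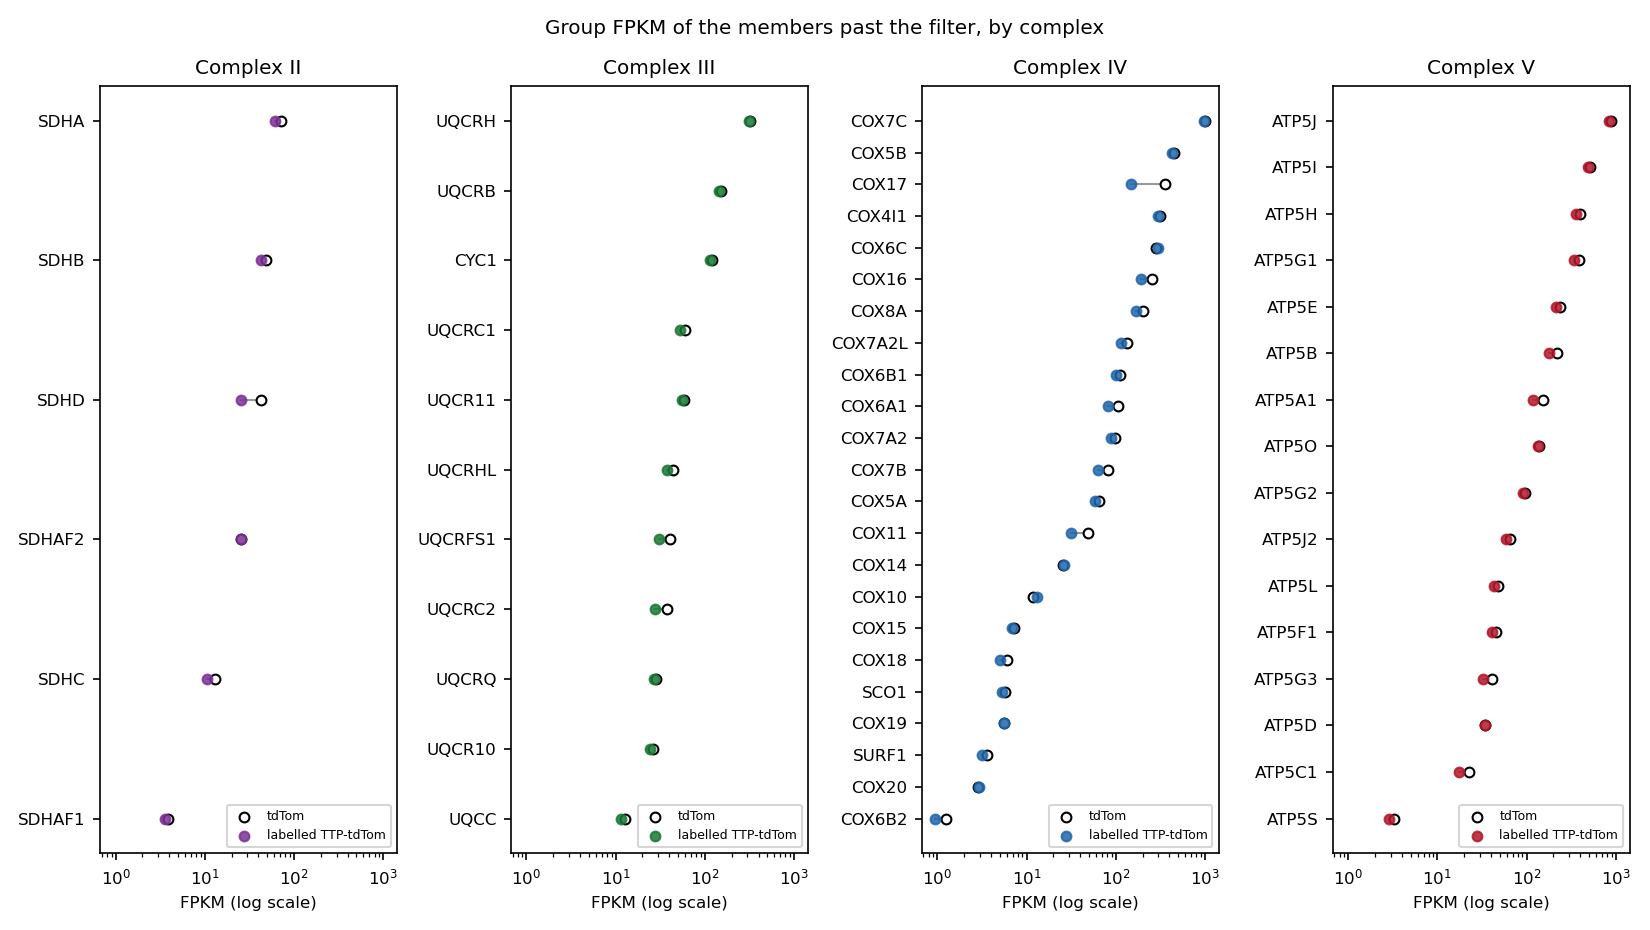
FPKM on a log axis for each member past the filter, ordered by the tdTom level within each complex; open circles are the tdTom group and filled circles the group labelled TTP-tdTom, with 1 value per group. COX17 moves from 353.3 to 149.5 FPKM, whereas most pairs of circles overlap.

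Complex IV held the member with the lowest ratio. COX17, the copper chaperone that supplies the assembly of cytochrome c oxidase, was at 353.3 FPKM in the tdTom group and at 149.5 FPKM in the group labelled TTP-tdTom. This was 42.3% of the control level, a 2.36-fold lower value, with a log2 ratio of -1.24, or -0.996 relative to the median of all symbols. Only 3.81% of all symbols had a lower ratio. It was the only member at least 2-fold lower, where 8.5% of all symbols were, and none was 2-fold higher, against 0.8%. Its assembled locus spans 119388372 to 119396243 on chromosome 3 of GRCh37. COX11, an inner membrane protein needed to build a copper center of the enzyme, was at 49.4 and 31.7 FPKM, or 64.2% of the control level (log2 ratio -0.64, -0.39 relative to the median). Its locus, on chromosome 17 of GRCh37 from 52977857 to 53241449, spans 263593 bases for a transcript of 2497, so fragments of neighbouring transcripts may be part of its value. COX11 was the member closest to the 1.5-fold limit (1.56-fold lower), and on the other side of it UQCRC2 was 1.35-fold lower.

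Among the members, the remaining 9 assembly factors of complex IV past the filter were less than 1.5-fold different. SCO1, which delivers copper to the enzyme, was at 5.69 and 5.28 FPKM (log2 ratio -0.11). COX19, an assembly factor with a cysteine motif like that of COX17, was at 5.67 and 5.64 FPKM (-0.0061), the member of the complex nearest to 0. SCO2 was below the filter at 0.296 and 0.318 FPKM, at a locus that also names TYMP. For the enzymes of heme a synthesis, COX10 was at 11.8 and 13.2 FPKM (0.16, the highest ratio of the 56 members past the filter) and COX15 at 7.18 and 6.87 FPKM (-0.062). Of the remaining assembly factors, COX18 had a log2 ratio of -0.26, SURF1 of -0.17, COX14 of 0.025 and COX20 of 0.056. COX16 was listed at 252.3 and 191.9 FPKM (-0.39), but its locus also names SYNJ2BP and their readthrough. The summed FPKM of the 11 complex IV assembly factors past the filter had a log2 ratio of -0.71, which became -0.34 without COX17.

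The 10 ubiquitous structural subunits of complex IV had a median log2 ratio of -0.13, with none 1.5-fold lower, against 23.3% of all symbols. COX7C was the most abundant member of all, at 1007 and 967.0 FPKM (-0.058). Among these subunits COX5B came next, at 445.9 and 426.6 FPKM (-0.064), and then COX4I1, the regulatory subunit, at 315.5 and 301.4 FPKM (-0.066). COX6C was the only subunit of any complex with a ratio above 0, at 284.1 and 297.8 FPKM (0.068). The lowest ratios were those of COX6A1, with 106.0 and 81.8 FPKM (-0.37), COX7B, with 81.8 and 63.8 FPKM (-0.36), and COX8A, with 201.7 and 167.6 FPKM (-0.27). COX5A, COX6B1 and COX7A2 lay between -0.17 and -0.13. COX7A2L, which joins complexes III and IV into supercomplexes, was at 133.5 and 115.3 FPKM (-0.21).

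Tissue-restricted isoforms of complex IV subunits were listed at low levels. COX4I2 of the lung, COX6A2 and COX7A1 of heart and muscle, and COX7B2 and COX8C of the testis were all under 0.5 FPKM in both groups, and COX6A2 was listed at 0 in the control. COX6B2, the testis isoform, was at 1.248 and 0.954 FPKM (log2 ratio -0.39), the lowest level among the members past the filter. In each pair the ubiquitous isoform held at least 98.88% of the summed FPKM of the pair in both groups. COX7B2 was listed at 0.380 and 0.0397 FPKM and COX7A1 at 0.205 and 0.4501 FPKM, but at these levels no fold is given. With ATP5L2 and SCO2, these isoforms make up the 7 members below the filter, which ranged up to 0.408 FPKM in the tdTom group and 0.4501 FPKM in the other.

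ATP synthase showed no member past 1.5-fold in either direction, where 23.3% of all symbols were that much lower and 1.79% higher. In its F1 head, where ATP is made, the catalytic beta subunit ATP5B was at 221.1 FPKM in the tdTom group and 178.6 FPKM in the group labelled TTP-tdTom (log2 ratio -0.31). The alpha subunit ATP5A1 was at 152.5 and 118.1 FPKM (-0.37). The gamma subunit ATP5C1, the rotating shaft, was at 22.7 and 17.4 FPKM (-0.38), the lowest ratio of the complex. These 3 lay below the median of all symbols, whereas the delta subunit ATP5D, at 34.2 and 33.8 FPKM (-0.016), and the epsilon subunit ATP5E, at 237.9 and 212.4 FPKM (-0.16), lay above it. ATP5E shares its locus with SLMO2. The 4 members of the peripheral stalk, which holds the head in place, ranged from -0.17 for ATP5F1 to -0.047 for ATP5O. One of them, ATP5J, was the most abundant gene of the complex, at 885.2 and 840.0 FPKM (-0.076). Its locus spans 133307 bases for a transcript of 826, so here too neighbouring transcripts may add fragments. The membrane subunits ATP5I, ATP5J2 and ATP5L lay between -0.14 and -0.090. ATP5S, a coupling factor, had the lowest level past the filter, 3.27 and 2.84 FPKM (-0.20).

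The rotor ring of ATP synthase is built from subunit c, a protein whose mature form is encoded identically by ATP5G1, ATP5G2 and ATP5G3. ATP5G1 was at 383.7 and 337.8 FPKM (log2 ratio -0.18), ATP5G2 at 95.4 and 91.8 FPKM (-0.056) and ATP5G3 at 40.7 and 32.5 FPKM (-0.32). ATP5G1 made up 73.8% of their summed FPKM in the tdTom group and 73.1% in the group labelled TTP-tdTom. ATP5G2 made up 18.4% and 19.9%, and ATP5G3 7.82% and 7.03%. The order of the 3 genes was the same in both groups, and their sum went from 519.8 to 462.1 FPKM (-0.17).

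Complex I and the mitochondrial ribosome were described in the same way, as other sets of nuclear genes for mitochondrial proteins. The 41 NDUF genes past the filter had a median log2 ratio of -0.17 and 3 of them were at least 1.5-fold lower (7.32%). The 73 mitochondrial ribosomal protein genes had a median of -0.18 and 8 of them were that much lower (10.96%). With 1 value per group no test of a difference between these lists could be made.

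**Figure D3:**
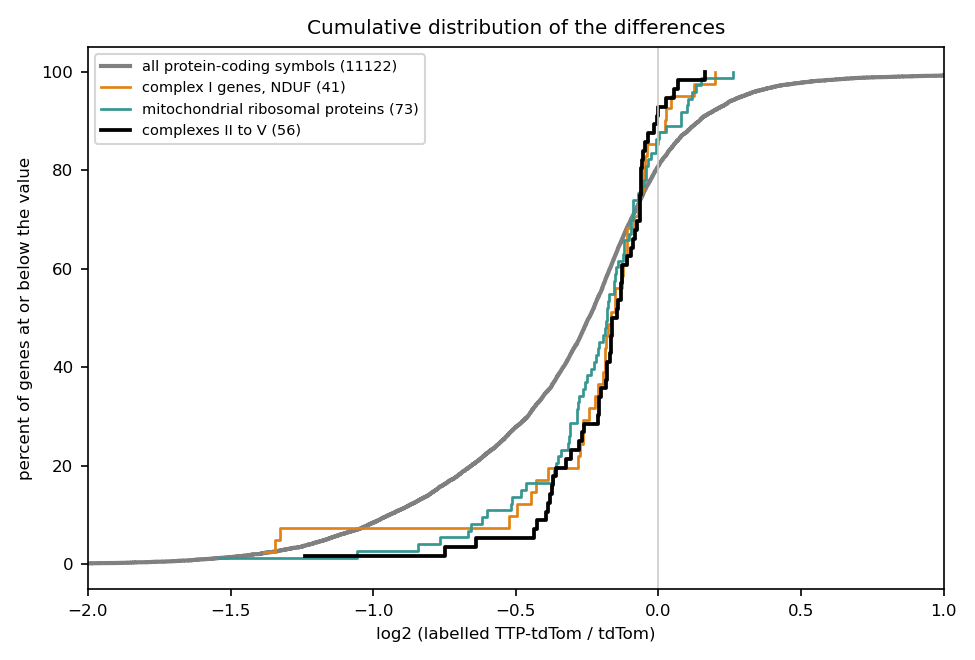
Percent of genes at or below each log2 ratio of the group labelled TTP-tdTom over tdTom, for all 11122 protein-coding symbols, the 56 members, 41 complex I genes and 73 mitochondrial ribosomal protein genes. The curve of the members is steeper than that of all symbols, with 5.36% against 23.3% at 1.5-fold lower, and close to those of the other mitochondrial lists; the axis ends at -2 and 1.

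Genes that serve the same complexes but fall outside the member rule were read from a list of assembly factors, carriers and regulators. Of its 46 names, some of them older and newer symbols of 1 gene, 34 were listed, and all 34 passed the filter. Their median log2 ratio was -0.26, and 9 of them, or 26.5%, were at least 1.5-fold lower, near the 23.3% of all symbols. CYCS, cytochrome c itself, had the lowest ratio, with 43.1 and 17.1 FPKM (-1.33). HIGD1A, which associates with complex IV, was at 31.04 and 14.4 FPKM (-1.11). CMC1 and CMC2, relatives of COX17 with the same kind of cysteine motif, were at 59.7 and 29.1 FPKM (-1.04) and at 27.4 and 16.5 FPKM (-0.73). LYRM7, an assembly factor of complex III, was at 3.96 and 2.01 FPKM (-0.98), and TMEM70, an assembly factor of ATP synthase, at 15.1 and 9.51 FPKM (-0.67). CHCHD7, LYRM5 and C7orf44 were the other 3. Further genes of the list stayed under a 1.5-fold difference, among them HIGD2A (-0.19), CHCHD8 (-0.28), COA5 (-0.13) and C1orf31 (-0.54). The ATP synthase assembly factors ATPAF1 and ATPAF2 had log2 ratios of -0.088 and -0.072, and the complex III factor BCS1L one of -0.20. The highest ratio of the list was 0.32, for SELRC1.

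Features of the transcripts that the symbol rule did not use were compared next. All 56 members matched a protein-coding GENCODE transcript through their RefSeq names, as did 10811, or 97.2%, of all symbols past the filter. The members' transcripts were short, with a median coding length of 412.5 bases against 1377 and a median 3′UTR of 407 bases against 1211, where the longest 3′UTR among the matched transcripts was taken. The heptamer UAUUUAU was present in 10 members, or 17.9%, against 34.8% of all symbols. At a 3′UTR of 407 bases or less, 2 of 28 members (7.14%) had it, COX17 and COX7A2, as did 7.88% of the 2221 other symbols. The median log2 ratios of these sets were -0.14 and -0.16. The 10 members with the heptamer had a median log2 ratio of -0.27 and the other 46 one of -0.14. In all symbols these medians were -0.46 and -0.18.

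Of the 3 members at least 1.5-fold lower, COX17 carried 1 heptamer, at base 93 of a 3′UTR of 399 bases (the first sequence shown above), while SDHD and COX11 had none in 3′UTRs of 824 and 1527 bases. The shorter core AUUUA occurred 4 times in SDHD and 7 times in COX11, and at least once in 34 members (60.7%) and in 72.6% of all symbols. Conversely, COX7A2 and COX19 each carried 1 heptamer, at log2 ratios of -0.13 and -0.0061, and ATP5A1 carried 4 in its longest matched 3′UTR but 0 in its shortest, at -0.37. The nonamer UUAUUUAUU, which contains the heptamer, occurred in 2 members (3.57%) and in 9.12% of all symbols. All motifs were searched on the mRNA strand only, with overlapping matches counted. A match is a description of the letters present and not evidence of binding. When the shortest matched 3′UTR was taken in place of the longest, 8 members (14.3%) and 27.4% of all symbols had the heptamer. ATP5A1, SDHC and UQCRB then had none, while ATP5S, without it in its longest 3′UTR, had 1.

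The ratio between the groups moved with the base composition of the transcript. With all symbols sorted by GC content into 10 deciles, the median log2 ratio was -0.76 in the lowest and -0.093 in the highest. Over all 10811 symbols with a transcript, Spearman's rho between GC content and log2 ratio was 0.49 (Pearson's r 0.39), and over the 56 members it was 0.29 (r 0.31). These are correlations across genes of the same libraries, which are not independent replicates. The members were not rich in GC, with a median of 47.4% against 48.0%. Of the 56, 39 lay above the median of their own GC decile, or 69.6%. COX17, at 43.1% GC, lay in a decile with a median log2 ratio of -0.35, SDHD, at 41.0%, in one with -0.44, and COX11, at 39.4%, in one with -0.58. Relative to these medians COX11 was at -0.062, SDHD at -0.31 and COX17 at -0.89. In the decile of SDHD, COX7C, at 41.6% GC, was at -0.058, against the same median of -0.44. The part of base composition in these differences was not tested.

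**Figure D4:**
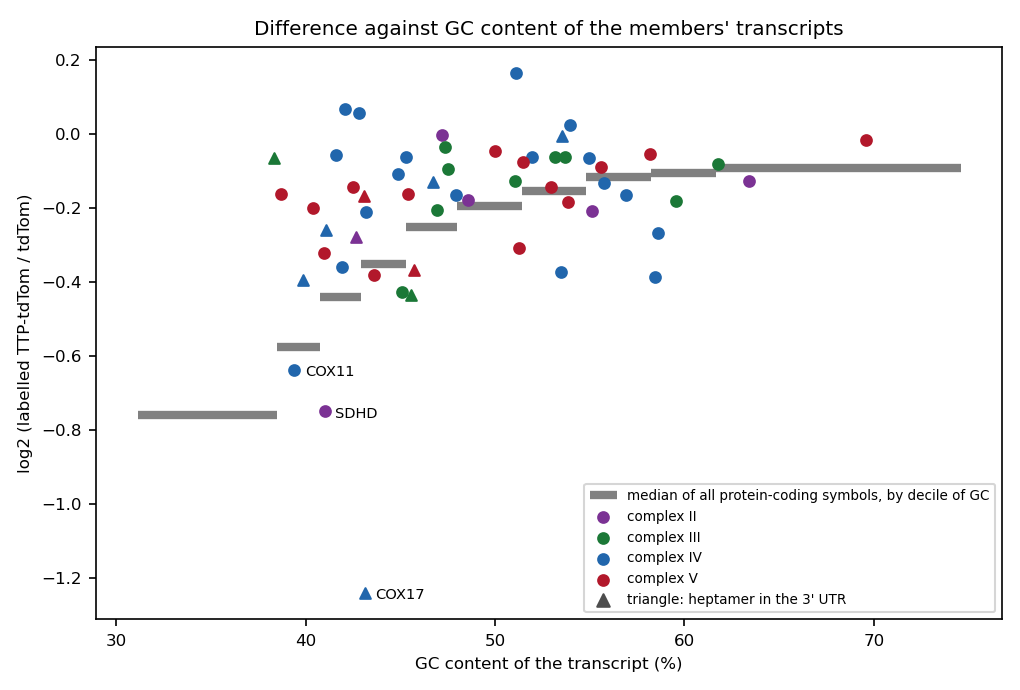
Log2 ratio of the group labelled TTP-tdTom over tdTom against the GC content of the transcript in percent; points are the 56 members, triangles have the heptamer in the longest matched 3′UTR, and grey bars are medians of all symbols by decile of GC content. COX17 lies far below the bar of its decile, SDHD lower than its own and COX11 near it, while most other members lie on or above the bars.

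Level and ratio showed little relation among the members, with a Spearman's rho of -0.013 between the tdTom FPKM and the log2 ratio over the 56 genes, against -0.26 over all symbols with a transcript. Both measures share the tdTom value, so this is given as a description only. The members spanned levels from 1.248 to 1007 FPKM in the tdTom group, with a median of 58.8 against 9.31 over all symbols past the filter.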

How the data were processed

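The authors aligned strand-specific paired-end RNA-Seq reads with TopHat2 2.0.13 to Hs37D5 (GRCh37) and assembled and compared transcripts with Cufflinks 2.2.1. The deposited table holds 406165 loci with 1 FPKM value per group, as the authors computed it from 3 samples each. The authors' fold changes, p-values and q-values, also in that table, were not used. The depth reached per sample cannot be read from FPKM values. For symbols listed more than once, the locus naming most RefSeq transcripts was taken, and among equals the highest FPKM; symbols at the same locus counted once. Ratios were taken without a pseudocount at loci above 0 in both groups and with a mean of at least 1 FPKM; assembled loci can hold neighbouring genes. The rule for named genes took members past 1.5-fold, the highest, lowest and least different member of each complex, paralog groups, the SDH subunits and ZFP36; other members and pathway genes with values were chosen after their values were seen, by role. The members and lists were chosen with earlier results of these data known. Transcripts came from GENCODE release 29, matched by RefSeq name. Python 3.11.15, numpy 2.4.6, pandas 2.3.3 and matplotlib 3.10.9 were used, and the functions were tested on simulated data.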

Additional observations from a re-analysis of the deposited data

Results flagged for a closer look

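A second assembled locus with the name ATP5L, not used in the comparison, stood at 1.07 FPKM in the group labelled TTP-tdTom and at 0.363 FPKM in the tdTom group. It was noted because it lies outside the comparison and its level was above that of the control. Its mean over the groups is under the 1 FPKM asked of the members. Of the 9 unused loci with member names, 4 were higher in the group labelled TTP-tdTom and 5 were lower, among them an ATP5J2-PTCD1 locus at 2.29 FPKM in the control and 0.0713 FPKM in the other group. The main ATP5L locus was at 47.7 FPKM in the control and at 43.1 FPKM in the group labelled TTP-tdTom. From 1 value per group no error of this difference was computed, and the authors' p-values and q-values were not used.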

How the results depend on the processing

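No paired analysis was possible because the deposited table holds 1 value per group; fits without single replicates could not be made for the same reason. Centring on the median of all symbols turned the members' median log2 ratio from -0.15 to 0.090, the medians of complexes II, III, IV and V to 0.050, 0.15, 0.11 and 0.080, and the number at least 1.5-fold lower from 3 to 1 (COX17), where the share of all symbols that much lower went from 23.3% to 13.4%. Rescaling both groups to the same FPKM sum gave 0.073, 0.033, 0.13, 0.094 and 0.063, and again 1, against 13.7% of all symbols. At a limit of 80% of the control level the number lower was 12 (21.4%), against 41.2% of all symbols. At 50% it was 1 (1.79%), against 8.5% of all symbols. Without a filter 1 member, COX7A1, was counted as 1.5-fold higher and COX7B2 as lower, both under 0.5 FPKM, where a fold has little meaning, and 20.5% of all symbols were that much lower; the median of all symbols became -0.16 against -0.15 for the members, and 31 of 62 members lay above it in place of 40 of 56. Pseudocounts of 0.1 and 1, a minimum of 10 FPKM, the other choices of locus and, chosen after seeing the data, loci of 1 symbol only kept the members' median between -0.16 and -0.14, and the same 3 genes were at least 1.5-fold lower. The study's methods state only the depth aimed for, and the depth reached per sample cannot be read from FPKM, which leaves the precision of the low values unknown.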
